A study of Homo sapiens with 6 samples.

Results

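The fibroblast growth factor (FGF) genes described here are the secreted and intracellular FGFs, their receptors and Klotho co-receptors, the receptor adaptors, and the Sprouty, SPRED and ETS genes that act in feedback on the pathway. They were chosen by symbol: FGF followed by a number, FGFR1 to FGFR4, FGFRL1, SPRY1 to SPRY4, SPRED1 to SPRED3, ETV4, ETV5, FRS2, FRS3, KL and KLB, which gave 40 of the 35793 genes listed. RNA was measured in cardiomyocytes differentiated from human induced pluripotent stem cells and harvested on day 15, with no drug treatment. The wild type was WTC11, an established cell line, and the STK25 homozygous knockout was a CRISPR/Cas9 derivative of WTC11. STK25 encodes a serine/threonine kinase. Each genotype had 3 biological replicates. The knockout was 1 cell line, so the edit and any other difference between the lines cannot be told apart.

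A secreted FGF binds a receptor tyrosine kinase together with heparan sulfate or, for the endocrine FGFs, with a Klotho protein. The active receptor phosphorylates the adaptors FRS2 and FRS3, which recruit GRB2 and switch on Ras and the kinase ERK. ERK signalling induces ETS factors such as ETV4 and ETV5 and also its own brakes, among them the Sprouty and SPRED proteins. FGF signals specify heart-forming mesoderm and keep cardiac progenitors dividing. The intracellular FGFs, FGF11 to FGF14, do not signal through these receptors in the classical way and are best known for binding voltage-gated sodium channels.

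Of the 40 genes, 30 averaged 10 or more normalized counts over the 6 libraries and were tested, and 9 of those 30 (30.0%) had an adjusted p under 0.05 with limma (Benjamini-Hochberg over all 15536 genes tested). Among all genes tested the share was 12.8%. FGF6, FGF8, FGFR2, FGFRL1, SPRY4 and ETV4 rose in the knockout, 6 of 30 against 5.97% of all genes, and FGF12, FGF13 and FGF18 fell, 3 of 30 against 6.79%. The median log2 fold change of the 30 was 0.22, beside 0.0052 over all genes. Of all genes 927 were higher and 1055 lower, and with equal library totals, which moved the median of all genes to -0.28, 546 were higher and 1466 lower. FGF18, FGF12 and FGFR2 kept their call and direction in all 16 alternative settings, and FGF6 in the 15 that tested it (its mean was under the filter of 50). The calls of the other 5 were lost in at least 1 setting. Fold changes are knockout minus wild type on log2(normalized count + 1), which understates the change of low genes.

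**Figure D1:**
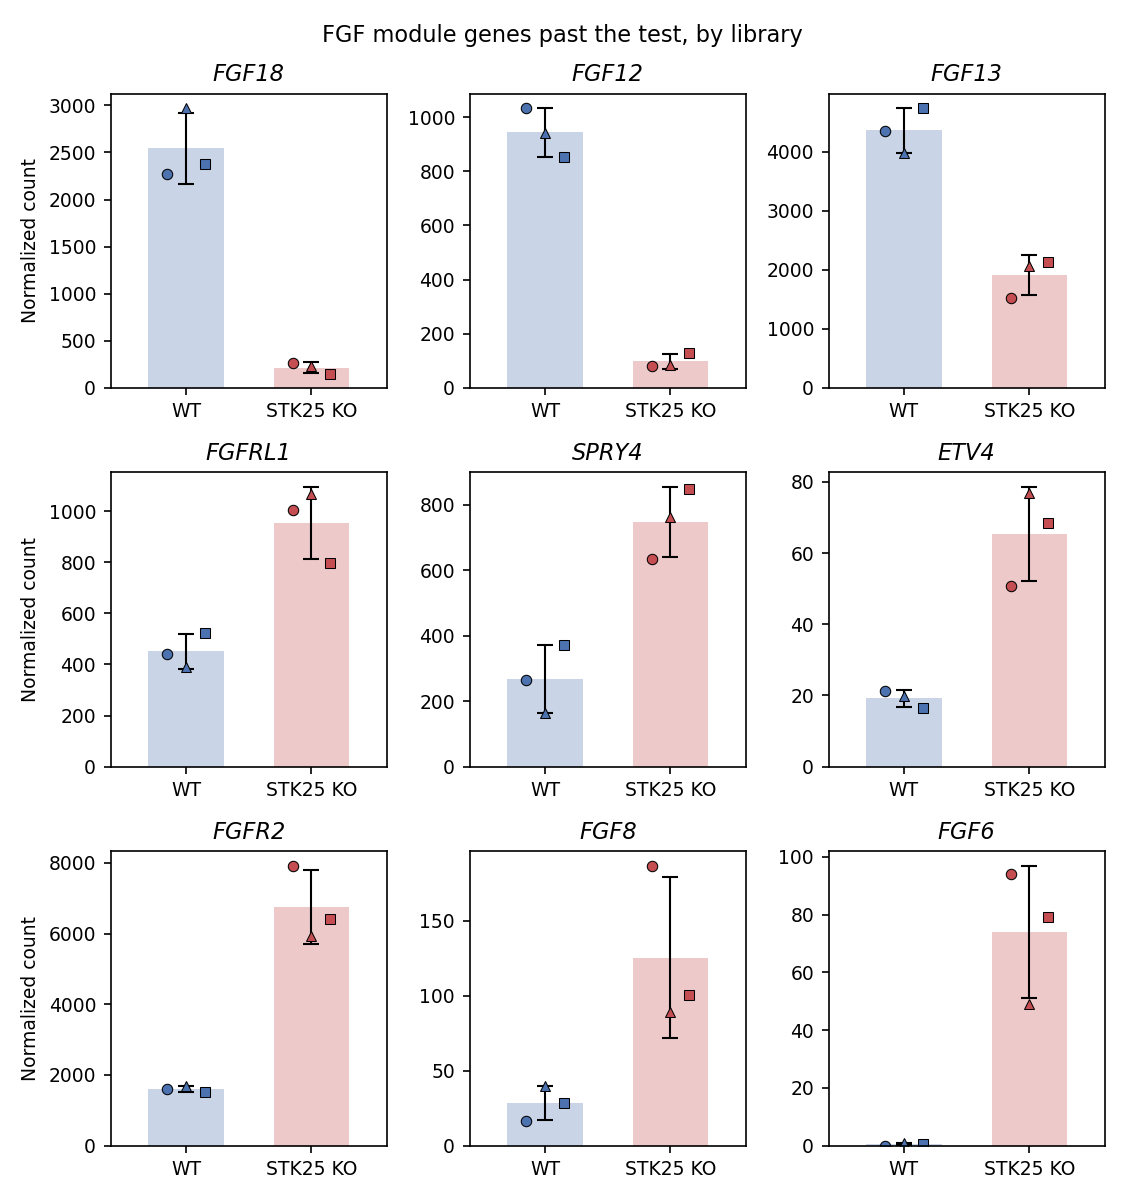
Normalized count (y axis, linear, from 0) of the 9 FGF genes with an adjusted p under 0.05 in wild-type (WT) and STK25 knockout (KO) cardiomyocytes. Bars are means of 3 libraries, error bars are SDs, and the circle, triangle and square are replicates 1, 2 and 3. In each panel the 3 libraries of 1 genotype lie above the 3 of the other.

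**Figure D2:**
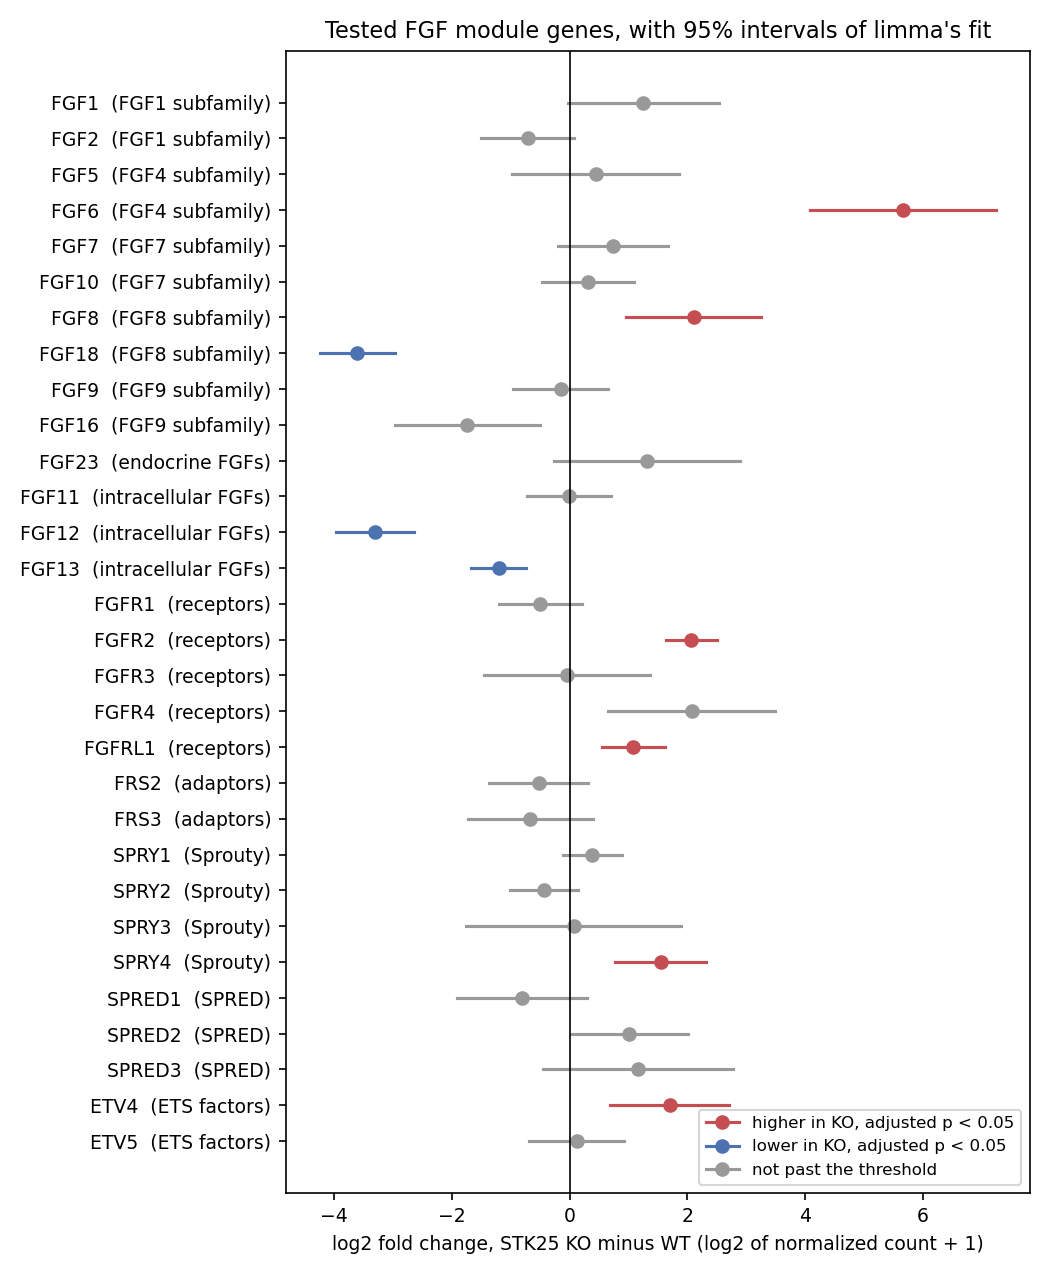
Log2 fold change (x axis, knockout minus wild type) of the 30 tested FGF genes in order of role, with the 95% interval of limma's fit. Red genes were higher and blue genes lower with an adjusted p under 0.05. FGF18 and FGF12 stand farthest to the left at -3.61 and -3.30, and FGF6 farthest to the right at 5.67.

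The libraries held from 22443904 to 53224112 recovered reads. STK25 itself was at 8119 ± 1168 normalized counts in the wild type and 3720 ± 251 in the knockout (SD, n = 3 each, with a log2 fold change of -1.12, SE 0.19, limma adjusted p = 0.00903). Leaving out wild-type replicate 1 raised that p to 0.0611. An exact two-sided permutation test of 3 against 3 libraries cannot give a p below 0.1, which is the value for STK25. The cardiomyocyte markers TNNT2, ACTN2, MYH6, MYH7, RYR2, TTN, MYBPC3 and NKX2-5 were present in all 6 libraries, with a summed level of 550159 to 725953 in the wild type and 819447 to 903720 in the knockout. Their level was at least 2017 normalized counts for each gene in each library. NKX2-5, a cardiac transcription factor, fell by 1.71 (limma adjusted p = 0.00135) and was the only one of these 8 past the threshold. The sum joins opposite directions, with 5 log2 fold changes above 0 and 3 below. MYH6 was at -1.14 (limma adjusted p = 0.0531) and MYH7 at 1.42 (limma adjusted p = 0.0639). In bulk RNA, fewer cells of a type and less RNA per cell cannot be told apart.

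Markers of other cell types also differed between genotypes. Summed smooth muscle markers were at 36247 to 40261 in the wild type and 114226 to 147563 in the knockout, with 4 of 5 higher. Among all genes tested 5.97% were higher and 6.79% lower. Fibroblast markers overlapped as a sum (8713 to 17297 and 8073 to 16279), but 3 of 7 were higher. DCN was at 13.4 ± 7.92 and 90.9 ± 31.3, COL3A1 at 760 ± 409 and 4446 ± 1939, and TCF21 at 22.2 ± 30.3 and 467 ± 67.9 (SD, n = 3 each). COL1A1 and POSTN were at -1.10 and -2.38 on the log2 scale (limma adjusted p = 0.0789 and 0.134). Epicardial markers were at 99.7 to 184 and 500 to 644 (1 of 4 tested higher, MSLN at no more than 3 reads). Endothelial markers were at 139 to 465 and 367 to 545 (0 of 3 tested past limma's adjusted threshold, CDH5 and ERG at no more than 3 reads). Endoderm and liver markers were at 1671 to 3009 and 1205 to 1252, with FOXA2 at 0 reads and 1 of 3 tested lower, AFP, which fell by 5.21 (limma adjusted p = 0.00661). Most of that sum was APOA1, at 2026 ± 743 and 1195 ± 31.4 (SD, n = 3 each), which did not pass (limma adjusted p = 0.136). Pluripotency markers were at 960 to 1043 and 3098 to 4469, a difference carried by TDGF1, the 1 of 5 tested that was higher. Without TDGF1 the sums were 352 to 480 in the wild type and 486 to 499 in the knockout, and ZFP42 was at -1.95 on the log2 scale (limma adjusted p = 0.0884). These values are marker RNA in bulk, and whether such cells were present was not tested. The part of any such cells in the results on FGF genes was not tested.

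The stretches of DNA just before the RefSeq starts of 4 of the 9 genes are printed. These genes were chosen because they differ in kind. FGF18 fell most, and FGFR2 and SPRY4 are a receptor and a brake that rose. FGF6 went from almost no reads to a measurable level. Each stretch is the 250 bases before the most upstream start in RefSeq (GRCh38.p14), 5′ to 3′ on the gene's strand. The SPRY4 stretch lies inside the gene's span in GENCODE (142310427 to 142326455, minus strand), downstream of the start given there. RefSeq promoters were found for 30 of the 40 genes, and FGF8 and ETV4 are among those without one. In FGF18, FGFR2 and SPRY4 the capitals mark CG steps. In FGF6 they mark, from left to right, the TEAD-type motif GGAATG on the minus strand (read as CATTCC), the same motif on the plus strand, the CRE motif TGACGTCA and the TATA motif TATAAA.
FGF18, chr5:171419397-171419646, plus strand: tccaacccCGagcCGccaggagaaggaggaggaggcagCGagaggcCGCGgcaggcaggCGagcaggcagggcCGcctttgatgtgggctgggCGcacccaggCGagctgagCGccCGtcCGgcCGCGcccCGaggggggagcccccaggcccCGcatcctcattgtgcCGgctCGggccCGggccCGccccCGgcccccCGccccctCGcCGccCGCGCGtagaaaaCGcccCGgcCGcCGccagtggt
FGFR2, chr10:121598445-121598694, minus strand: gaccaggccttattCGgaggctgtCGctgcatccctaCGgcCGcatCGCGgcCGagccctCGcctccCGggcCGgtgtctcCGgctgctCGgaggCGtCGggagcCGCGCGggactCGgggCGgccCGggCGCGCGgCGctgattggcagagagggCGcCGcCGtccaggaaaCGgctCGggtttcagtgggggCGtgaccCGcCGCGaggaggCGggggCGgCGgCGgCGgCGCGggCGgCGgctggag
SPRY4, chr5:142324248-142324497, minus strand: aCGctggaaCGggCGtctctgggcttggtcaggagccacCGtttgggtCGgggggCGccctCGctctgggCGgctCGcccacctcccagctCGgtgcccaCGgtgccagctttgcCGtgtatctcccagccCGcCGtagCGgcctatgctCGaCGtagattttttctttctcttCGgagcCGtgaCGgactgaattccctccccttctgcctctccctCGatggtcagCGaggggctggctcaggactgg
FGF6, chr12:4445816-4446065, minus strand: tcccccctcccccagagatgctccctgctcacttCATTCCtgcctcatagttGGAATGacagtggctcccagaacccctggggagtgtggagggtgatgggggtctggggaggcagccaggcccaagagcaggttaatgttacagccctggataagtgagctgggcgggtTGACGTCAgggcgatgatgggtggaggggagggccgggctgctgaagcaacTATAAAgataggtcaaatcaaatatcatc
The FGF18 window held 31 CG steps, that of FGFR2 42 and that of SPRY4 22, beside a median of 11 over 35116 RefSeq windows of that length, and the FGF6 window held 4. Both strands were searched. The TEAD-type motif was in 11.9% of all windows, the CRE motif in 1.65% and the TATA motif in 10.7%. The ETS-type motif GGAAGT was in 19.5% of them. The repressor CIC is known to bind octamers at ETV and SPRY genes, of which TGAATGAA was in 1.40% of windows, while the variant TGAATGGA was in 0.832%. No match to these letters was found in the windows of FGF18, FGFR2 and SPRY4 shown here. SPRY4 had 1 RefSeq start, so the stretch before its GENCODE start was not among its windows. Among the windows of FGFR2's other starts there were matches to GGAAGT and to the TEAD-type motif. A match describes the sequence and is not a measured binding site.

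The question for the ligands was which secreted FGFs these cells made and whether the genotypes differed. Of 18 secreted FGF genes, 11 were tested, 2 rose and 1 fell (27.3%, beside 12.8% of all genes). FGF18 (ENSG00000156427.7, chromosome 5, 171419656 to 171457623 in GENCODE 29 on GRCh38), a ligand of the FGF8 subfamily known from bone and lung growth, was at 2272, 2978 and 2378 normalized counts in wild-type replicates 1, 2 and 3 and at 264, 225 and 147 in the knockout. The lowest wild-type library was far above the highest knockout library. The means were 2543 ± 381 and 212 ± 60.0 (SD, n = 3 each), a 12.0-fold lower level in the knockout (log2 fold change -3.61, SE 0.28, limma adjusted p = 0.000343). Over the alternatives the log2 value ran from -3.89 to -3.37. No other gene in GENCODE 29 overlapped FGF18.

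FGF8, the founding member of the same subfamily and a signal of early mesoderm and of the midbrain-hindbrain boundary, moved the other way. It was at 16.6, 39.6 and 28.7 normalized counts in the wild type and at 187, 89.2 and 100 in the knockout. The knockout libraries all lay above the wild-type ones, with replicate 1 of the knockout the highest. The means were 28.3 ± 11.5 and 125 ± 53.4 (SD, n = 3 each, with a log2 fold change of 2.11, SE 0.50, limma adjusted p = 0.0307). The call was lost when wild-type replicate 1 or 3, or knockout replicate 1, 2 or 3, was left out, with limma adjusted p-values of 0.110, 0.0888, 0.0600, 0.0577 and 0.0844 and log2 values from 1.79 to 2.32, and without a filter on low values the adjusted p was 0.0555. FGF17, the other gene of this subfamily, had 34, 0 and 1 reads in the knockout replicates and 0 in each wild-type library.

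The summed level of 7 neural markers was 161 to 212 normalized counts in the wild type and 668 to 1091 in the knockout. Of 5 tested, SOX2, PAX6, TUBB3 and EN1 were higher (beside 5.97% of all genes). EN1, a homeobox gene of the midbrain-hindbrain boundary, was listed at 0 in each wild-type library and at 305, 210 and 179 in the knockout. OTX2, a forebrain and midbrain gene, was at 117 ± 19.2 in the wild type and 75.5 ± 36.0 in the knockout (SD, n = 3 each, log2 value -0.71, limma adjusted p = 0.337). STMN2 was too low to test, at 8 reads or fewer in every library. SOX1, which defines early neural progenitors, had at most 1 read in any library. The part of any other cells in the FGF8 level was not tested.

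FGF6, a ligand of the FGF4 subfamily known mainly from skeletal muscle (ENSG00000111241.2, chromosome 12, 4428155 to 4445614), had 0, 1 and 1 reads in the wild-type replicates and 74, 44 and 89 reads in the knockout. As normalized counts the knockout values were 94.1, 49.0 and 79.1. Nearly all reads of the gene therefore came from the knockout libraries. The mean of 74.1 ± 22.9 (SD, n = 3) was at least 25.5-fold higher than a floor of 3 reads in each wild-type library (limma adjusted p = 0.00221). No other gene overlapped it in GENCODE 29. FGF23, a hormone of phosphate balance whose gene lies nearby from 4368227 to 4379728, was at 125, 280 and 93.1 in the wild type and at 977, 163 and 323 in the knockout. Those groups overlapped and knockout replicate 1 was far above the rest (log2 fold change 1.32, SE 0.68, limma adjusted p = 0.260).

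FGF16, a ligand of the FGF9 subfamily known from the heart, was at 119, 101 and 81.0 normalized counts in the wild type and at 52.1, 14.5 and 32.0 in the knockout. The groups did not overlap, but the test was not passed (log2 fold change -1.74, SE 0.53, limma adjusted p = 0.0735). Without knockout replicate 1 it was passed, at -2.15 and an adjusted p of 0.0295, and the adjusted p was 0.0269 with DESeq2 and 0.0349 with equal library totals. FGF2, a mitogen of many cell types, likewise showed no overlap, with 106, 125 and 129 in the wild type and 89.0, 74.7 and 57.8 in the knockout (log2 fold change -0.71, SE 0.34, limma adjusted p = 0.225). FGF2 lies across NUDT6, which is read from the opposite strand, and the sources used here do not state whether reads were assigned by strand. Separated groups were met by 12 of the 30 genes (40.0%), beside 33.4% of all genes tested.

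FGF1, which can bind every FGF receptor, was at 186, 71.6 and 307 in the wild type and at 249, 536 and 422 in the knockout (log2 fold change 1.25, SE 0.55, limma adjusted p = 0.189). FGF10, a ligand of the cardiac progenitors of the second heart field, was at 1065, 887 and 1341 in the wild type and at 812, 1714 and 1758 in the knockout (log2 fold change 0.32, 95% interval -0.47 to 1.10, limma adjusted p = 0.606). FGF10 overlaps FGF10-AS1 on the opposite strand, and SPRY4-AS1 overlaps FGF1 and SPRY4. In FGF1 and FGF10 wild-type replicate 2 and knockout replicate 1 were the lowest libraries of their genotype, and without both the adjusted p was 0.0291 and 0.0361. FGF9, an epicardial and endocardial signal, was at 209 ± 75.6 and 182 ± 38.1 (SD, n = 3 each; limma adjusted p = 0.832). FGF7, made by mesenchyme, was at 121 ± 49.1 and 198 ± 64.8 (limma adjusted p = 0.292). Its value is uncertain, because the pseudogenes FGF7P3 and FGF7P6 carried from 119 to 343 and from 377 to 724 normalized counts in these libraries, and reads of near-identical copies can be split. FAM227B, at 344 to 776, also lies across FGF7 on the opposite strand. FGF5 was at 28.0 ± 4.63 and 44.4 ± 27.2 (limma adjusted p = 0.705).

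The remaining secreted FGFs averaged under 10 normalized counts. FGF3, FGF4 and FGF19 had 0 reads in all 6 libraries, which allows up to 3 reads in each, a mean of 2.91 normalized counts in the wild type and 3.27 in the knockout. FGF20 had 16 reads in knockout replicate 3 and 0 elsewhere. FGF21, a metabolic hormone, had 15, 3 and 7 reads in the knockout and 0 in the wild type, and FGF22 at most 8 reads in any library. With no filter on low values FGF21 passed limma's test, at 3.10 (SE 0.70, adjusted p = 0.0326). Floors cover counting error only.

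The intracellular FGFs were compared because they are cardiac sodium channel partners. Of 4 genes 3 were tested, 2 fell (beside 6.79% of all genes) and 0 rose. FGF12 (ENSG00000114279.13, chromosome 3, 192139395 to 192767764) was at 1036, 944 and 852 normalized counts in the wild type and at 78.8, 82.5 and 130 in the knockout. The means were 944 ± 92.0 and 97.0 ± 28.4 (SD, n = 3 each), 10.3% of the wild-type level (log2 fold change -3.30, SE 0.29, limma adjusted p = 0.000562). All 3 knockout libraries stood well below every wild-type library, and the log2 value ran from -3.58 to -3.17 over the alternatives.

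FGF13 (ENSG00000129682.15, chromosome X, 138614731 to 139222777), which like FGF12 binds the tail of cardiac sodium channels, was at 4359, 3984 and 4752 in the wild type and at 1513, 2069 and 2140 in the knockout. The groups were apart, with the knockout at 43.7% of the wild-type mean (log2 fold change -1.21, SE 0.20, limma adjusted p = 0.00918). Leaving out wild-type replicate 1 raised that p to 0.0539, at the same -1.21. FGF11 was at 520, 325 and 612 in the wild type and at 492, 548 and 371 in the knockout, with a log2 fold change of -0.02 and a 95% interval of -0.73 to 0.70 (limma adjusted p = 0.983). Its direction turned when wild-type replicate 1 or 3 or knockout replicate 3 was left out, to 0.057, 0.18 and 0.15. FGF14 had at most 15 reads in any library. In GENCODE 29, 3 genes on the opposite strand lie across FGF12 and 3 across FGF13, which gene totals without strand cannot separate, and isoforms with other first exons are summed in these totals.

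Sodium channel subunit genes, with the scaffold gene MAPK8IP2, whose protein binds intracellular FGFs, were listed beside them. Of 14 genes 8 were tested, 0 rose and 2 fell (25.0%, beside 12.8% of all genes), with a median of 0.39 on the log2 scale. SCN2B, a beta subunit, was at 52.9, 111 and 82.9 in the wild type and had at most 1 read in each knockout library, at least 25.1-fold lower against a floor of 3 reads per library (limma adjusted p = 0.00214).

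Among the receptors the question was whether the cells' receptor set differed between genotypes. All 5 were tested, and FGFR2 and FGFRL1 rose (beside 5.97% of all genes). FGFR2 (ENSG00000066468.22, chromosome 10, 121478334 to 121598458), whose splice forms serve epithelial and mesenchymal cells, was at 1603, 1684 and 1513 normalized counts in the wild type and at 7927, 5926 and 6422 in the knockout. Wild-type libraries were close together, and every knockout library was far above them. The means were 1600 ± 85.5 and 6758 ± 1042 (SD, n = 3 each), 4.22-fold higher in the knockout (log2 fold change 2.07, SE 0.19, limma adjusted p = 0.000672), with log2 values from 1.79 to 2.16 over the alternatives. Gene totals do not say which splice form was counted. The summed level of 4 epithelial markers was 113737 to 120456 in the wild type and 276824 to 308418 in the knockout. It was carried by KRT8 and KRT18, whose groups were apart (limma adjusted p = 0.0218 and 0.00348), while EPCAM and CDH1 did not pass (limma adjusted p = 0.660 and 0.899). None of the 4 was at 0 throughout, and their part in the FGFR2 level was not tested.

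FGFRL1 (ENSG00000127418.14, chromosome 4, 1009936 to 1026897), a receptor that lacks the kinase domain, was at 441, 389 and 524 in the wild type and at 1004, 1066 and 796 in the knockout, 2.12-fold higher. The groups were separate (log2 fold change 1.08, SE 0.23, limma adjusted p = 0.0216). With equal library totals the value was 0.80 (adjusted p = 0.0982). Without wild-type replicate 1, 2 or 3 the adjusted p was 0.0944, 0.0527 and 0.0518, and without knockout replicate 2 or 3 it was 0.0781 and 0.0503.

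FGFR1, the main receptor of mesodermal cells, was at 2234, 1552 and 2343 in the wild type and at 947, 1765 and 1734 in the knockout. These overlapped (log2 fold change -0.50, 95% interval -1.19 to 0.20, limma adjusted p = 0.342). FGFR3 was at 329, 155 and 458 in the wild type and at 116, 392 and 473 in the knockout (log2 fold change -0.04, 95% interval -1.45 to 1.37, limma adjusted p = 0.976), and its sign was positive with edgeR and DESeq2. FGFR4 was at 12.1, 9.90 and 15.9 in the wild type and at 114, 30.1 and 49.8 in the knockout. Its groups did not overlap, knockout replicate 1 was the highest, and the test was not passed with limma (log2 fold change 2.08, SE 0.61, adjusted p = 0.0656) but was with DESeq2 (2.36, adjusted p = 0.00701).

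To compare receptors with each other, counts were divided by the length of the longest coding transcript in GENCODE 29. The order and the shares depend on that choice of length, 6.05 kb for FGFR1 and 4.37 kb for FGFR2. Undivided, the means of FGFR1 and FGFR2 were 2043 and 1600 in the wild type and 1482 and 6758 in the knockout. Per kb, FGFR1 and FGFR2 stood at 337 ± 70.9 and 366 ± 19.6 in the wild type (SD, n = 3 each) and did not differ beyond their spread, followed by FGFR3 at 70.8 ± 34.2 and FGFR4 at 4.05 ± 0.98. In the knockout FGFR2 stood at 1547 ± 238 per kb, above FGFR1 at 245 ± 76.6, FGFR3 at 73.7 ± 42.2 and FGFR4 at 20.7 ± 14.1. FGFR2 made up 47.6% ± 8.08 of the per-kb level of FGFR1 to FGFR4 in the wild type and 81.7% ± 6.51 in the knockout (SD, n = 3 each). FGFRL1 was at 124 ± 18.6 per kb in the wild type and 263 ± 38.8 in the knockout.

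**Figure D3:**
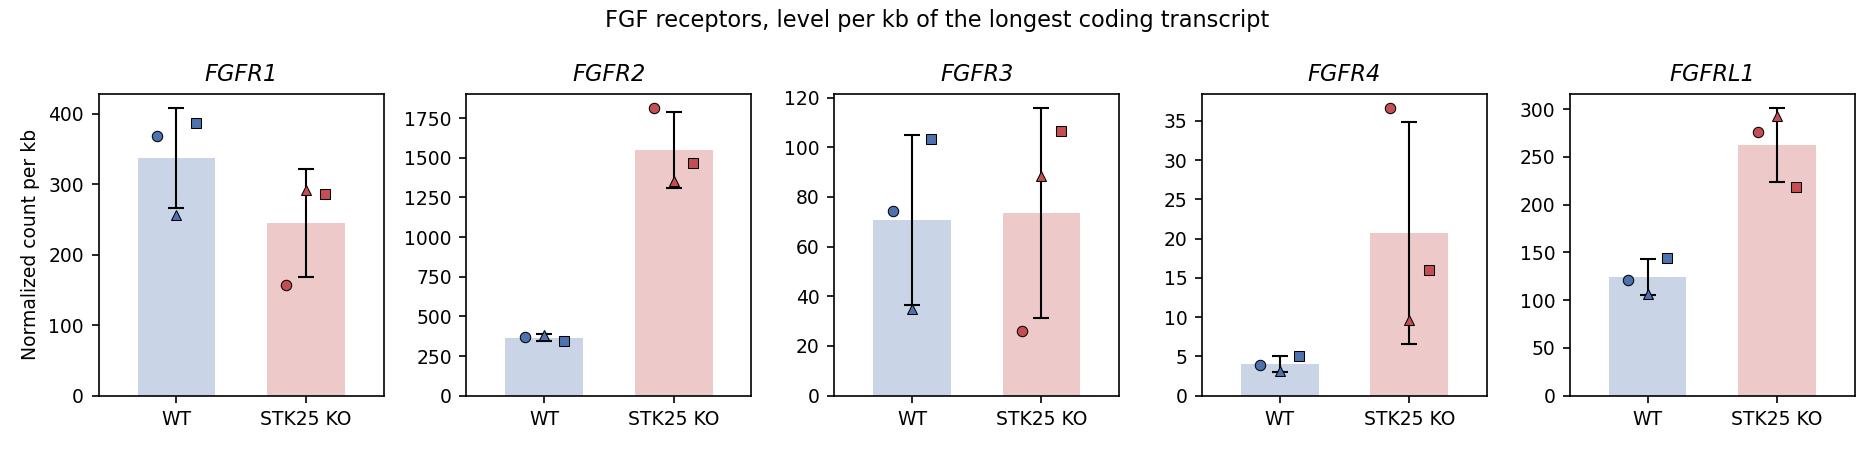
Normalized count per kb of the longest coding transcript (y axis, linear, a separate scale in each panel) for the 5 FGF receptors. Bars are means of 3 libraries, error bars SDs, and circles, triangles and squares replicates 1, 2 and 3. FGFR2 rose from 366 to 1547 per kb, while the points of FGFR1 and of FGFR3 overlap between genotypes.

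The Klotho co-receptors, which endocrine FGFs need, were hardly detected. KL had 2 reads in knockout replicate 3 and 0 elsewhere, and KLB had from 3 to 12 reads in each library. The adaptors FRS2 and FRS3 were at 598, 280 and 609 and at 175, 143 and 242 in the wild type. In the knockout FRS2 was at 264, 402 and 319 and FRS3 at 62.3, 188 and 127. Libraries of the genotypes overlapped for both: FRS2 was at -0.53 on the log2 scale (limma adjusted p = 0.401) and FRS3 at -0.67 (limma adjusted p = 0.399). For FRS2 the limma adjusted p was 0.0303 without wild-type replicate 2 and knockout replicate 1. FRS3 shares its place with genes read from the opposite strand.

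The brakes and the ETS factors report on ERK activity in many cells, so they were compared next. Of the 9 genes 2 rose and 0 fell (22.2%, beside 12.8% of all genes). SPRY4 (ENSG00000187678.9, chromosome 5, 142310427 to 142326455), a Sprouty inhibitor of Ras-ERK signalling, was at 264, 165 and 373 normalized counts in the wild type and at 633, 762 and 848 in the knockout. The groups did not overlap. The means were 267 ± 104 and 748 ± 108 (SD, n = 3 each), 2.80-fold higher (log2 fold change 1.55, SE 0.33, limma adjusted p = 0.0221). With equal library totals the adjusted p was 0.0814, and without wild-type replicate 1 or knockout replicate 2 or 3 it was 0.0828, 0.0674 and 0.0911.

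The other Sprouty genes did not pass. SPRY1 was at 967, 1249 and 1021 in the wild type and at 1617, 1478 and 1159 in the knockout (log2 fold change 0.39, 95% interval -0.11 to 0.89, limma adjusted p = 0.300). SPRY2 was at 1307, 1096 and 1415 in the wild type and at 702, 1168 and 1013 in the knockout (-0.43, interval -1.005 to 0.15, limma adjusted p = 0.318). SPRY3, which lies in the region shared by chromosomes X and Y, spanned 22.9 to 186 in wild-type libraries and 49.6 to 127 in knockout libraries (log2 fold change 0.07, limma adjusted p = 0.969), and its sign turned with equal library totals, to -0.21.

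The SPRED genes, which hold the Ras regulator NF1 at the membrane, gave 0 calls among 3 tested with limma, edgeR and DESeq2, with 1 at an unadjusted p under 0.05 in limma's fit. SPRED1 was at 147 ± 45.4 and 88.1 ± 42.5, SPRED2 at 237 ± 112 and 467 ± 188, and SPRED3 at 9.84 ± 5.80 and 22.3 ± 9.97 in the wild type and the knockout (SD, n = 3 each). Their log2 fold changes were -0.81, 1.02 and 1.16, with limma adjusted p-values of 0.329, 0.175 and 0.335. In all 3 the libraries of the genotypes overlapped.

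ETV4 (ENSG00000175832.12, chromosome 17, 43527844 to 43579620), an ETS factor of the PEA3 group, was at 21.1, 19.8 and 16.6 in the wild type and at 50.8, 76.9 and 68.4 in the knockout. The groups were apart, at a low level (means 19.2 ± 2.34 and 65.4 ± 13.3, SD, n = 3 each, with a log2 fold change of 1.70, SE 0.44, limma adjusted p = 0.0413). The adjusted p was 0.101 without a filter on low values, 0.0574 with edgeR, 0.0793 with equal library totals, 0.116, 0.0745 and 0.131 without wild-type replicate 1, 2 or 3, and 0.135 and 0.137 without knockout replicate 2 or 3. DHX8 lies across ETV4 on the opposite strand and was at 713 to 1292 in the knockout and 753 to 1312 in the wild type. ETV5, of the same group, was at 376, 190 and 429 in the wild type and at 310, 332 and 381 in the knockout (log2 fold change 0.12, 95% interval -0.69 to 0.92, limma adjusted p = 0.872), and its sign turned with equal library totals, to -0.16.

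Wild-type replicate 2 and knockout replicate 1 stood apart over the whole table: both were the lowest of their genotype in 30.4% of all genes tested and both the highest in 29.5%. For the FGF genes the shares were near these, at 12 of 30 (40.0%) and 10 of 30 (33.3%). Of the uncalled genes, FGFR1, FGFR3, FRS2, SPRY2 and ETV5 were among the former, and FGF5, FGF7, FGF9, FGF23 and SPRY1 among the latter. Of the called genes, FGF13 and SPRY4 were among the former, and FGF6, FGF8, FGF18 and FGFR2 among the latter. The labels give no batch. Without these 2 libraries, 13 of the FGF genes had an adjusted p under 0.05 in place of 9. The count over all genes also rose, to 4706 of 15381 tested from 1982 of 15536.

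**Figure D4:**
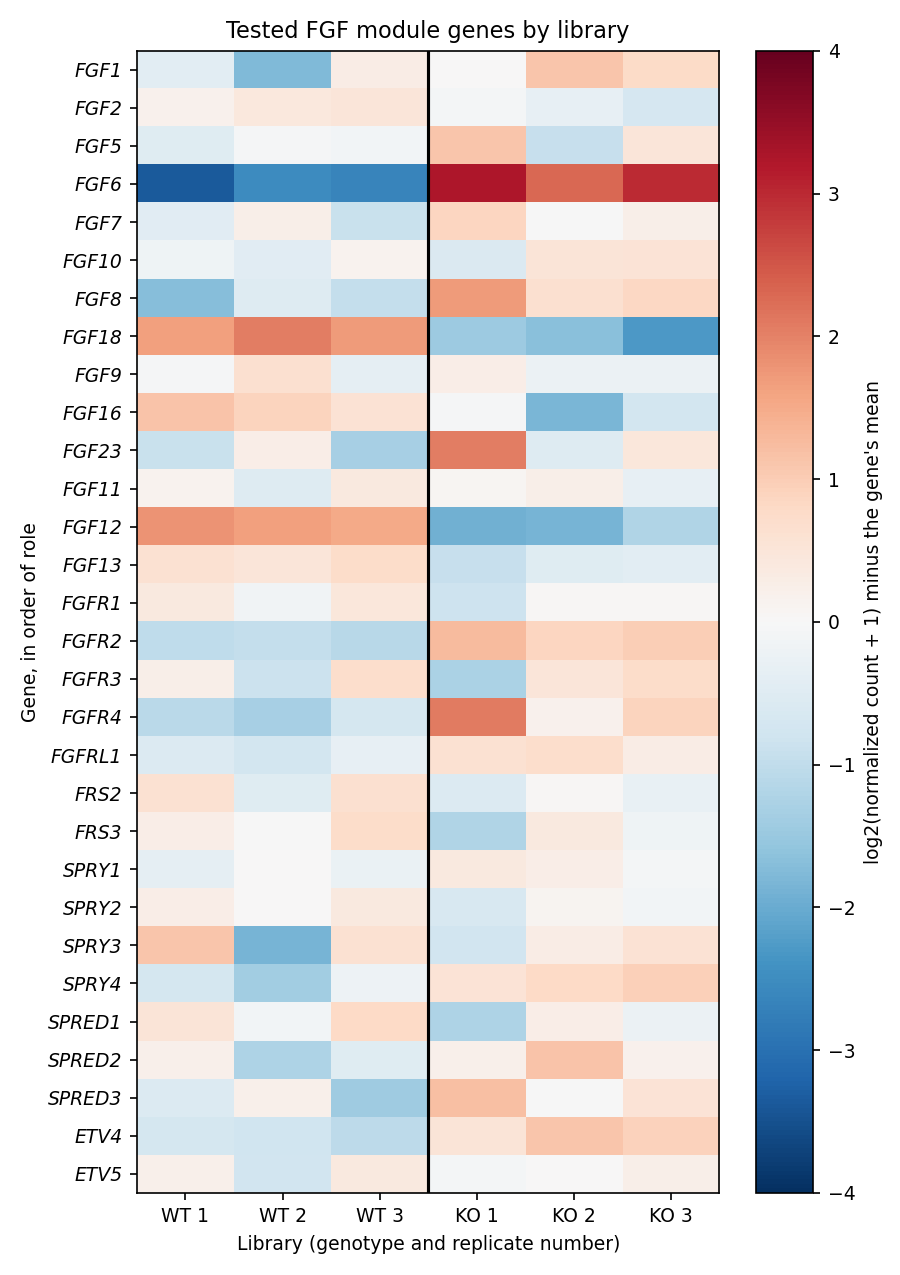
Log2(normalized count + 1) minus the gene's mean over the 6 libraries (colour, red above and blue below) for the 30 tested FGF genes, by library. FGF18 and FGF12 are red in all wild-type (WT) and blue in all knockout (KO) columns and FGF6 the reverse, while FGFR3 and SPRY3 are blue in WT 2 and KO 1.

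Further genes of the pathway were taken from lists chosen with earlier results of these data known, so their shares only describe these lists. Of 22 genes of the Ras-ERK cascade, 1 rose and 1 fell (9.09%, beside 12.8% of all genes), with a median log2 fold change of 0.06. GRB2, the adaptor that links FRS2 to Ras activation, was at 5427 ± 143 and 9024 ± 390 (SD, n = 3 each, with a log2 fold change of 0.73, SE 0.16, limma adjusted p = 0.0255). With equal library totals GRB2 was at 0.45 (adjusted p = 0.165), and without wild-type replicate 1 or 3 or knockout replicate 2 or 3 the adjusted p was 0.122, 0.112, 0.0755 and 0.116. BRAF, a kinase between Ras and MEK, was at 547 ± 74.3 and 213 ± 60.3 (log2 fold change -1.39, SE 0.28, limma adjusted p = 0.0187). In those same fits BRAF had adjusted p-values of 0.0661, 0.0849, 0.0620 and 0.0749. BRAF lies on chromosome 7 from 140719327 to 140924928, and the 95 tested genes between 140 and 160 Mb there, an interval chosen after the values were seen, had a median of -1.04 with 87.4% of them lower. Its neighbours' part in the BRAF value was not tested.

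ERK-induced and feedback genes outside the family moved in both directions: of 16 tested, 3 rose and 4 fell (43.8%, beside 12.8% of all genes), with a median of 0.19. DUSP6, the ERK phosphatase that FGF signals classically induce, was at 1320, 1034 and 1261 in the wild type and at 2149, 3405 and 3414 in the knockout (log2 fold change 1.29, SE 0.24, limma adjusted p = 0.0138). The groups were apart, but the adjusted p was 0.0862 with equal library totals and, without wild-type replicate 1 or 3 or knockout replicate 2 or 3, 0.0550, 0.0516, 0.0502 and 0.0660. MYC, a growth-promoting transcription factor, was at 36.3, 31.2 and 65.1 in the wild type and at 472, 671 and 669 in the knockout (3.80, SE 0.37, limma adjusted p = 0.000968).

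IL17RD, also called SEF, is a membrane inhibitor of FGF receptors. It was at 219, 126 and 307 in the wild type and at 5.08, 14.5 and 14.2 in the knockout (log2 fold change -4.19, SE 0.56, limma adjusted p = 0.00338). All knockout libraries were far below the wild type. EPHA4, an ephrin receptor, was at 1532 ± 294 and 337 ± 107 (SD, n = 3 each, log2 value -2.21, SE 0.29, limma adjusted p = 0.00295). EGR1, an immediate early factor, was at 113 ± 3.00 and 16.6 ± 13.7 (-2.97, SE 0.59, limma adjusted p = 0.0163; 0.0771, 0.0693 and 0.0622 without wild-type replicate 1 or 3 or knockout replicate 3). DUSP5, an ERK phosphatase of the nucleus, was at 1763 ± 233 and 992 ± 71.0 (-0.82, SE 0.19, limma adjusted p = 0.0307). Leaving out wild-type replicate 1 or 3 or knockout replicate 2 or 3 gave DUSP5 an adjusted p of 0.107, 0.128, 0.0800 and 0.121. The last of the 7 called, DUSP4, had a log2 fold change of 2.99 (limma adjusted p = 0.0338) and was named after its value was seen. Its adjusted p was 0.0510 with equal library totals, 0.0688 with edgeR, 0.0850 and 0.101 without wild-type replicate 2 or 3, and 0.0680, 0.0841 and 0.0909 without knockout replicate 1, 2 or 3.

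Heparan sulfate chains hold FGFs at the cell surface. Of 24 tested genes for these chains and their core proteins 2 rose and 2 fell (16.7%, near the 12.8% of all genes), with a median of -0.01. GPC3, a glypican core protein, was at 929, 751 and 1003 in the wild type and at 7240, 11374 and 11122 in the knockout (log2 fold change 3.45, SE 0.24, limma adjusted p = 0.000243). SULF1, which strips sulfate groups from the chains outside the cell, was at 77.0, 76.9 and 126 in the wild type and at 353, 779 and 674 in the knockout (2.64, SE 0.39, limma adjusted p = 0.00494). Every knockout library was well above every wild-type one for both genes. GPC1, another glypican, was at 6129 ± 1851 and 2219 ± 456 (-1.44, SE 0.29, limma adjusted p = 0.0167; 0.0823, 0.0693 and 0.0596 without wild-type replicate 1 or 3 or knockout replicate 3). SDC1, a syndecan, was at 232 ± 39.1 and 62.8 ± 10.4 (SD, n = 3 each, log2 value -1.87, SE 0.32, limma adjusted p = 0.00993; 0.0641 and 0.0518 without wild-type replicate 1 or 3). Without knockout replicate 1 the count in this list was 8 of 23 tested, beside 2192 of all 15453 genes tested in that fit.

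Of 8 tested extracellular FGF partners 3 rose and 0 fell (37.5%, beside 12.8% of all genes), with a median of 0.49. FLRT2 and FLRT3 are membrane proteins that bind FGF receptors or adhesion partners. FLRT2 was at 230, 168 and 313 in the wild type and at 773, 690 and 595 in the knockout (log2 fold change 1.57, SE 0.29, limma adjusted p = 0.0133; 0.0625 without wild-type replicate 1). FLRT3 was at 337, 126 and 374 in the wild type and at 782, 1345 and 1042 in the knockout (2.03, SE 0.44, limma adjusted p = 0.0228). With equal library totals the adjusted p of FLRT3 was 0.0708, and without wild-type replicate 1 or knockout replicate 2 or 3 it had 0.0577, 0.0731 and 0.0830. L1CAM, a neural adhesion molecule, was at 18.1, 0.762 and 0 in the wild type and at 191, 210 and 212 in the knockout (5.99, SE 1.04, limma adjusted p = 0.0102). It rose beside the neural markers given with FGF8, and their part in its level was not tested.

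**Figure D5:**
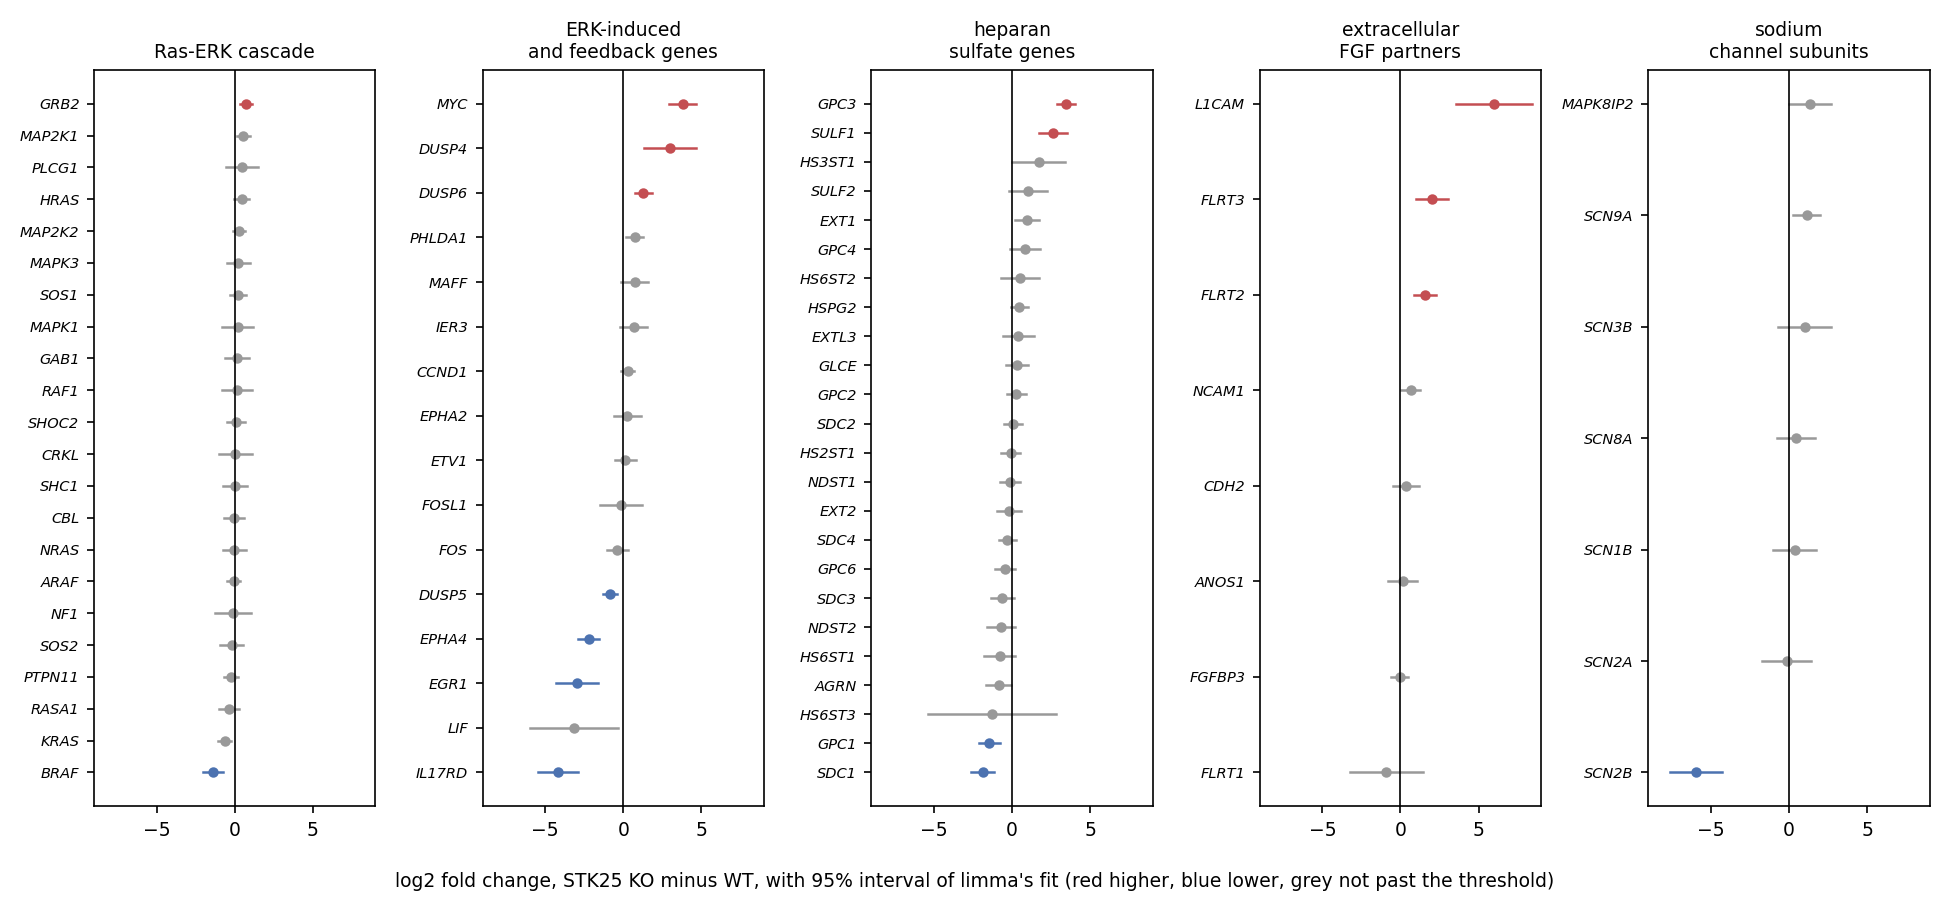
Log2 fold change (x axis, knockout minus wild type) with the 95% interval of limma's fit for tested genes of 5 pathway lists, sorted within each list. Red genes were higher and blue genes lower with an adjusted p under 0.05, and grey genes did not pass. The Ras-ERK cascade lies near 0 apart from GRB2 at 0.73 and BRAF at -1.39, while IL17RD at -4.19 and MYC at 3.80 are the ends of the ERK-induced list.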

How the data were processed

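RNA-seq was measured in 6 libraries, 3 per genotype. Per the labels' protocols, RNeasy columns with DNase treatment gave the RNA, the Clontech Ultra Low v4 kit the cDNA, and NexteraXT the libraries. The submitters' processing notes name bcl2fastq 2.19, kallisto 0.44.0, DESeq2 1.28.1 and GRCh38, without saying which step each served. The annotation and strand setting are not given in the sources used here.

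The deposited values are a signal called normalized counts. In every column 100% of values were whole multiples (within 0.001) of 1 step, so reads were recovered by division; if they were estimates, they had been rounded. The libraries had 0 unused columns. Replicates differed by more than sampling noise, with chi-square per degree of freedom of at least 19.9. If replicates were not separate cultures, p-values measure only the spread between these samples.

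limma 3.58.1 in R 4.3.3 was fitted to log2(value + 1) of genes averaging 10 or more, with eBayes and a trend, no covariate, and Benjamini-Hochberg adjustment (threshold 0.05, two-sided). Alternatives were pseudocounts, filters, scalings, a replicate block, each library left out, and edgeR 4.0.16 and DESeq2 1.42.0 on the recovered reads; a fit without 2 libraries together was chosen after seeing the data. The fit was tested on simulated data. Members and lists were chosen with earlier results of these data known. Genes named by rule are STK25, all members, and up to 6 called genes of lowest p per pathway list; DUSP4, marker genes and overlapping genes were named beyond it. The values of 1 called gene of the sodium channel list are not reported here, and the plot of pathway lists leaves it out. Figures used Python 3.11.15 and matplotlib 3.10.9. Promoters came from RefSeq (GRCh38.p14), and positions, overlaps and lengths from GENCODE 29.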

Additional observations from a re-analysis of the deposited data

How the results depend on the processing

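None of the 9 called FGF genes changed direction, and 4 kept their call, in the alternatives that tested them: 16, or 15 for FGF6 and ETV4, whose means were under 50. Of 21 tested and uncalled genes 5 passed in at least 1 alternative: FGF1, FGF10, FGF16, FGFR4 and FRS2. FGF1, FGF10 and FRS2 passed only without wild-type replicate 2 and knockout replicate 1, where 4706 of all 15381 genes tested were called. The matching count over all genes and alternatives was not made. FGF21, untested otherwise, passed with no filter on low values. Of the 18 called pathway genes, 0 reversed and 7 kept their call wherever tested. With equal library totals 546 genes were higher and 1466 lower, in place of 927 and 1055.

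Replicate numbers were checked as pairs: deviations of same-numbered libraries correlated at -0.23, -0.40 and 0.17. The highest of all pairs was wild-type replicate 2 with knockout replicate 1, at 0.45. With 3 libraries per genotype these values cannot decide whether same-numbered libraries shared a culture or batch. With the replicate number as a block, the genes called were 798 in place of 1982, the FGF genes 4 in place of 9, the Ras-ERK cascade 0 with limma (3 at an unadjusted p under 0.05, and 3 called by edgeR without a block), heparan sulfate genes 2 and extracellular partners 1, and STK25 was at -1.12 with an adjusted p of 0.0684. With DESeq2, 3210 genes and 4 of the Ras-ERK cascade were called. With a mean of at least 50, 1 sodium channel gene was called, since SCN2B fell under that filter. Without wild-type replicate 2 and knockout replicate 1, 4706 of 15381 genes tested, 13 FGF genes, 6 of the cascade and 12 heparan sulfate genes were called. STK25 was then at -1.28.

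Leaving out each library in turn, the genes called ran from 792 (without wild-type replicate 1) to 2192 (without knockout replicate 1), the FGF genes from 4 to 9, the cascade from 0 (at least 3 at an unadjusted p under 0.05) to 3, ERK-induced genes from 3 to 7, heparan sulfate genes from 2 to 8, extracellular partners from 1 to 3, and sodium channel genes from 1 to 2. STK25 ran from -1.24 to -1.05. These fits have fewer samples, and what else lowered the counts was not tested.

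Direction turned in 6 uncalled FGF genes. FGF5 ran from -0.0021 to 1.01 (knockout replicate 1 or 2 left out), and FGF9 from -0.37 to 0.12 (wild-type replicate 3 or 2 left out). FGF11 was at 0.057 and 0.18 when wild-type replicate 1 or 3 was left out, 0.15 when knockout replicate 3 was, and -0.32 without both libraries named above. FGFR3 was at 0.049 with edgeR, 0.058 with DESeq2, 0.059, -0.48 and 0.30 when wild-type replicate 1, 2 or 3 was left out, 0.59 when knockout replicate 1 was, and 0.15 without both. SPRY3 was at -0.21 with equal totals, -0.27 with edgeR and DESeq2, 0.65 and -0.84 when wild-type replicate 1 or 2 was left out, -0.059 and -0.20 when knockout replicate 2 or 3 was, and -0.43 without both. ETV5 was at -0.16 with equal totals, -0.24 and 0.34 when wild-type replicate 2 or 3 was left out, and -0.17 without both. The cause was not tested. Values of genes with few reads are limited by depth: 10 of the 40 FGF genes had a mean under 10 and were not tested.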
